A study of Drosophila melanogaster with 3 samples.

Results

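Small nucleolar RNA (snoRNA) genes were examined for binding of GFP-tagged lozenge (lz), a transcription factor with a Runt DNA-binding domain, in the fruit fly *Drosophila melanogaster* at the white prepupa stage. The members were all genes with the snoRNA biotype in the Ensembl gene models of the dm6 build, 269 of 18358 genes. They formed 107 loci when genes that share a host or lie within 1000 bp of each other were counted as 1, and 68 of these loci held 1 gene. Chromatin immunoprecipitation and sequencing (ChIP-seq) was performed through the GFP tag on whole animals, males and females pooled, of a transgenic line that stably expressed lz with GFP at its C-terminus. The samples formed 1 group of 3 biological replicates from the same line, and the labels give each replicate its own biological material. There was no second genotype, stage or treatment, so nothing was compared between conditions, and no untagged or input sample was analysed here. The animals were whole, so a bound site cannot be assigned to a tissue.

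snoRNAs guide the chemical modification of other RNAs, mostly ribosomal RNA, in the nucleolus. Box C/D snoRNAs carry a C box near the start and a D box near the end and direct ribose methylation, whereas box H/ACA snoRNAs end shortly after an ACA triplet and direct pseudouridylation. Related RNAs of the Cajal body, named scaRNA, guide modification of spliceosomal small nuclear RNAs. Many fly snoRNAs are encoded inside introns of host genes and are released from the spliced intron, so that they depend on the promoter of the host. Hosts include ribosomal protein genes and the Uhg genes, which are non-coding RNA genes known as carriers of intronic snoRNAs. Other snoRNA genes have no host on their strand and are here termed independent.

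Of the 269 genes, 243 lay wholly in an intron of a gene on the same strand, 22 were independent, and 4 overlapped an exon of a host. By name, 120 were box H/ACA, 48 gave no class and the others were box C/D. The names agreed largely with the sequences. The C box letters TGATGA stood in the first 15 bases of 68 box C/D genes (67.3%) and of 0 of the 120 box H/ACA genes. The D box letters CTGA stood in the last 15 bases of 92 box C/D genes (91.1%), and ACA stood in the last 8 bases of 114 of the 120 (95%). The genes had a median length of 134 bases (46 to 316).

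The following box C/D genes lay within 500 bp of a bound site, and their C and D boxes are in capitals. They are shown because each sits close to the start of its host. The sequences were read 5′ to 3′ on the gene's strand from the RefSeq genome of the dm6 build. snoRNA:Or-CD11a lies in RpL28 at chr3L:3222475-3222541 on the minus strand, snoRNA:Me28S-A774b in RpS12 at chr3L:13023580-13023652 on the plus strand, snoRNA:Me18S-G1358c in RpL15 at chr3L:27267383-27267450 on the plus strand, and snoRNA:Me18S-A1576 in Uhg2 at chr2L:9894795-9894907 on the minus strand.
snoRNA:Or-CD11a: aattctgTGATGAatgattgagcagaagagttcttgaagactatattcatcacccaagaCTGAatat
snoRNA:Me28S-A774b: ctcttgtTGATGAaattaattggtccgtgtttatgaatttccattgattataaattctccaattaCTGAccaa
snoRNA:Me18S-G1358c: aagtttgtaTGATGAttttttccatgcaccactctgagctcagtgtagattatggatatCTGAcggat
snoRNA:Me18S-A1576: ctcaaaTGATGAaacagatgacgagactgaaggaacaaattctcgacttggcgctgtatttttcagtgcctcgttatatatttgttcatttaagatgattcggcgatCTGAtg

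The following box H/ACA genes also lay within 500 bp of a bound site close to a host start, and the ACA near the end is in capitals. snoRNA:Psi18S-920 lies in RpL10Ab at chr3L:11822984-11823124 on the plus strand, snoRNA:Psi28S-1232 in RpL17 at chrX:6743675-6743815 on the minus strand, and snoRNA:Or-aca2 in RpS6 at chrX:7901062-7901203 on the minus strand.
snoRNA:Psi18S-920: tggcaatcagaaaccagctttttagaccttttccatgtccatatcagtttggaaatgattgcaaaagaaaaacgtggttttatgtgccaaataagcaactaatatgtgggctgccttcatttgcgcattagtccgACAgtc
snoRNA:Psi28S-1232: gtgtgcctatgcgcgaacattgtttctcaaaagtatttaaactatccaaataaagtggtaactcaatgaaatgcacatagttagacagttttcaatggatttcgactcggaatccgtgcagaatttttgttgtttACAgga
snoRNA:Or-aca2: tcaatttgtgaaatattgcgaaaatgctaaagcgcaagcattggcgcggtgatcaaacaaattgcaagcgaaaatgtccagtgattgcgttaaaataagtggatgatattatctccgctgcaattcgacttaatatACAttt

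The bound sites themselves lay upstream of the host genes. Windows that reach 50 bp to either side of the summit, the point of highest signal of a peak, are shown for RpL28 (chr3L:3222978-3223078), RpL10Ab (chr3L:11822734-11822834) and Uhg2 (chr2L:9895023-9895123), each on the strand of the host. Capitals mark TATCGATA, the DNA replication-related element found at many fly promoters, and CGATAT, a motif bound by the insulator protein BEAF; in RpL10Ab these overlap. The Uhg2 window holds neither motif and is shown for contrast.
RpL28: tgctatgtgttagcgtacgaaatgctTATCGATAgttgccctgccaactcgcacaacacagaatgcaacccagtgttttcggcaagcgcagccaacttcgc
RpL10Ab: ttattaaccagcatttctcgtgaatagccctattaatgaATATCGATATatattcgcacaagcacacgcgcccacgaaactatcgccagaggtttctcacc
Uhg2: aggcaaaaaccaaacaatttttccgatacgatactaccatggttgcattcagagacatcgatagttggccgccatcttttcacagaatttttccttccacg

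The authors' thresholded set held 8048 peaks, which were the highest of the 30000 calls on the pooled replicates. Each replicate had a list of 30000 calls of its own and was represented by its highest 8048. Peaks were ranked within a list by the signal the authors gave them, rank 1 being the highest, and the signal was used for nothing else. The depth of sequencing is unknown, since no read counts come with the peaks, and the intervals given here are 95% Wilson intervals that cover the number of genes counted. Genes of a locus share summits and are not independent, so these intervals are too narrow. Replicate 2 gave the lowest count of snoRNA genes, of hosts and of all genes near a summit.

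snoRNA genes were seldom close to a bound site. A thresholded summit lay within 500 bp of 19 of 269 snoRNA genes (7.06%, interval 4.57 to 10.8%), against 29.8% of all genes of the same models. The count was 22 genes in replicate 1, 14 in replicate 2 and 17 in replicate 3, a share of 6.57% ± 1.50 (SD, n = 3), where 31.5, 27.1 and 29.5% of all genes had a summit. Every replicate therefore placed the snoRNA share far below that of all genes. snoRNA genes are short, and a short gene offers less room for a summit. Among all 1754 genes of up to 300 bp, snoRNA genes included, 6.16% had a thresholded summit within 500 bp, and 5.59% of the bases of the chromosome arms lay that close to one. The snoRNA share was thus near that of short genes. The 19 genes belonged to 17 of the 107 loci (15.9%), and the replicates gave 20, 14 and 15 loci.

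**Figure D1:**
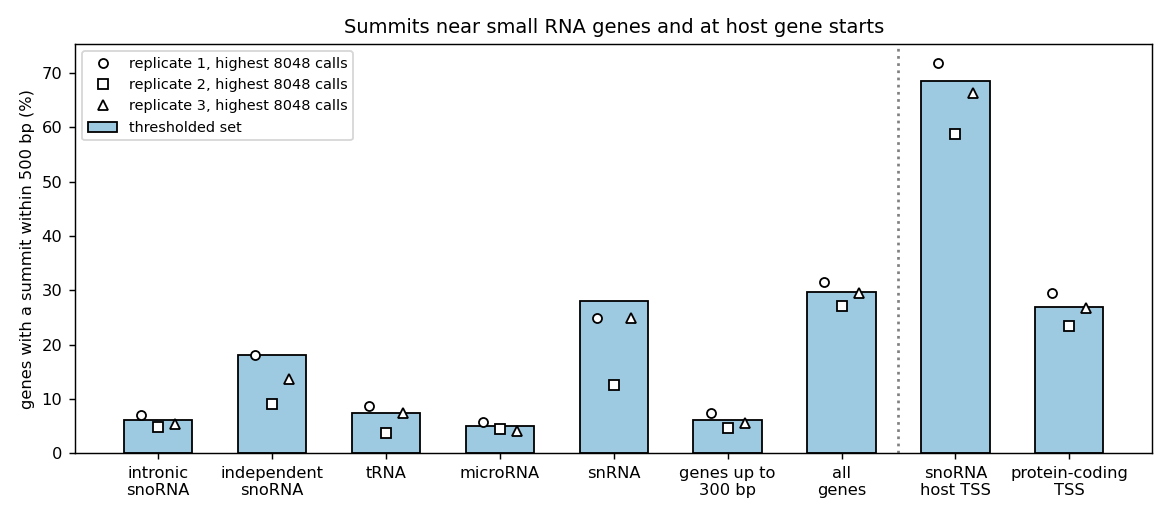
Share of genes with a summit within 500 bp of the gene (%) for intronic and independent snoRNA genes and other gene classes and, right of the dotted line, within 500 bp of a TSS for snoRNA hosts and protein-coding genes, with a bar for the thresholded set and a symbol for each replicate's highest 8048 calls. Intronic snoRNA genes (6.17%) sit beside tRNA genes (7.37%) and far below all genes (29.8%), while the hosts (68.5%) stand above protein-coding genes (26.9%).

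Other small RNA genes gave values on either side. A summit lay within 500 bp of 23 of 312 tRNA genes (7.37%) and of 13 of 262 microRNA genes (4.96%), and the replicates gave 27, 12 and 23 tRNA genes and 15, 12 and 11 microRNA genes. The replicate shares of snoRNA genes (5.20 to 8.18%) overlapped those of tRNA genes (3.85 to 8.65%) and microRNA genes (4.20 to 5.73%). Small nuclear RNA genes, which encode the RNAs of the spliceosome, stood higher at 9 of 32 (28.1%), with 8, 4 and 8 in the replicates (20.8% ± 7.22, SD, n = 3). The lowest replicate of that class (12.5%) exceeded the highest replicate of snoRNA genes (8.18%). In all 30000 pooled calls, weak ones included, 49 snoRNA genes had a summit (18.2%) against 52.6% of all genes and 24.7% of genes of up to 300 bp. There 43.9% of tRNA genes had one. The full replicate lists gave 65, 34 and 62 snoRNA genes, where 56.0, 50.0 and 55.4% of all genes had a summit. In those lists the tRNA share (46.2, 22.8 and 49.7%) exceeded the snoRNA share (24.2, 12.6 and 23.0%) in each replicate, although replicate 2 of the one overlapped replicates 1 and 3 of the other.

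The peaks near snoRNA genes were repeated unevenly. Of the 19 genes, 8 had a summit within 500 bp among the highest 8048 calls of all 3 replicates, 9 in 2 of them and 2 in 1. Of the 250 genes without a thresholded summit, 242 had none in any replicate. When only thresholded peaks found in both other replicates were kept, 11 genes remained without replicate 1, 12 without replicate 2 and 12 without replicate 3. The corresponding locus counts were 9, 10 and 10. No summit lay inside any of the 19 genes: 16 genes had it upstream and 3 downstream. The distance limit separated close values. Just inside 500 bp stood snoRNA:Or-CD13 (468 bp), snoRNA:Or-CD11a (487 bp) and snoRNA:Or-aca5 (496 bp), and just outside stood snoRNA:Me18S-C1096 in RpL3 (508 bp), snoRNA:U49:66Da in RpL14 (509 bp) and snoRNA:Me18S-G1620 in Uhg2 (529 bp).

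The 19 genes lay near 17 summits, and 11 of these were within 500 bp of an annotated transcription start site (TSS) of the host. When peaks had to be found in both other replicates, 6 such summits were left without replicate 1, 8 without replicate 2 and 8 without replicate 3. Ranks in a replicate are given below for a call within 100 bp. Offsets from a TSS are negative upstream. The highest was at Uhg4, at -84 bp from the TSS and position 9095189 of chromosome arm 2R, with rank 659 in the thresholded set and ranks 534, 840 and 732 in replicates 1, 2 and 3. It lay 183 bp from snoRNA:Psi28S-2949 and 496 bp from snoRNA:Or-aca5, and all replicates placed it among their strongest calls. At RpL28, which encodes a protein of the large ribosomal subunit, the summit was at -68 bp from the TSS and ranked 720, with ranks 645, 717 and 943. It also lay within 500 bp of a TSS of eIF1, a translation initiation factor gene, so the peak cannot be given to one of these genes.

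The next 5 host summits belonged to ribosomal protein genes too. At RpS12 the summit ranked 1727 (1093, 2579 and 2269 in the replicates) and lay 252 bp from snoRNA:Me28S-A774b. At RpL17 it ranked 1861 (1199, 2695 and 2381) and lay 446 bp from snoRNA:Psi28S-1232, and at RpS29 it ranked 2383 (1997, 3186 and 2345) and lay 380 bp from snoRNA:Psi18S-1275. These 3 summits were at -24 bp (RpS12 and RpS29) or -23 bp (RpL17) from the host TSS and stood within the highest 8048 calls of every replicate. The RpL17 summit also had the TSS of tRNA:Phe-GAA-1-2 within 500 bp. At RpL10Ab the rank was 3247 (4060, 3814 and 3245), at -67 bp from the TSS and 200 bp from snoRNA:Psi18S-920. At RpS6, which shares its start region with the pseudogene CR33222, the rank was 4969, with 3263 in replicate 1, 11354 in replicate 2 and 5001 in replicate 3. The RpS6 summit, 130 bp from snoRNA:Or-aca2, was thus outside the highest 8048 calls of replicate 2.

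The other host summits were weaker or less even. Uhg2 had rank 5000 (3137, 8600 and 6559) and shared its summit with the start of Bka, and the nearest member was snoRNA:Me18S-A1576 at 166 bp. Uhg1, host of 16 snoRNA genes, had rank 5926 (6688, 4362 and 11667), 238 bp from snoRNA:Me28S-G3081a. RpL15 had rank 6193 (5817, 4116 and 10214), 161 bp from snoRNA:Me18S-G1358c. Each of these 3 fell outside the highest 8048 calls of 1 replicate. At eEF1alpha1, a translation elongation factor gene, a summit of rank 7269 lay 52 bp from snoRNA:Me28S-A1322 and was matched in replicate 1 alone (3666). It was at -471 bp from an annotated TSS that lies past the end of the snoRNA gene. From the nearest TSS upstream of the snoRNA gene this summit was at 949 bp, inside eEF1alpha1. The strongest TSS summit of eEF1alpha1, at another start, ranked 1579.

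A further 6 near summits were not within 500 bp of a host TSS. An intronic summit of egr, which encodes the fly tumour necrosis factor ligand, ranked 3172 (2768, 3487 and 4004). It lay 460 bp from snoRNA:Or-ACA6 and 468 bp from snoRNA:Or-CD13, which are on the strand opposite to egr. A summit of rank 4104 (3340, 4341 and 5604) lay 3076 bp downstream of the TSS of Uhg5, past the end of that gene and 347 bp from snoRNA:Or-CD4. These summits without a TSS were found in all 3 replicates. The third, in Arpc2, a gene for a subunit of the actin-nucleating Arp2/3 complex, ranked 7840 (10725, 5126 and 7421), 426 bp from snoRNA:Psi18S-525a.

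The last 3 near summits had the TSS of another small RNA gene within 500 bp and ranked low. Near scaRNA:MeU1:95C-A24 the summit of rank 6798 lay 146 bp into snRNA:U1:21D, a gene for the spliceosomal U1 RNA. The summit of rank 7531 lay 46 bp upstream of the start of snoRNA:185 and 333 bp downstream of the TSS of tRNA:Glu-TTC-1-5. Near snoRNA:hts-a, in hts, the summit of rank 7558 lay at -122 bp from the TSS of tRNA:Val-AAC-2-1. For each of the 3, a single replicate had a call within 100 bp among its highest 8048.

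Intronic genes were near a summit where they lay close to an annotated TSS of the host. A thresholded summit was within 500 bp of 15 of 243 intronic genes (6.17%, interval 3.78 to 9.93%), with 17, 12 and 13 in the replicates (5.76% ± 1.09, SD, n = 3). When peaks had to be found in both other replicates, 9, 10 and 10 genes were left without replicates 1, 2 and 3. Of the 33 intronic genes within 500 bp of a TSS of the host, 12 had a summit (36.4%), with 13, 9 and 9 in the replicates. Of the other 210, 3 had one (1.43%), with 4, 3 and 4 in the replicates, so every replicate separated these groups widely. Within 250 bp of the host TSS the share was 8 of 15 (53.3%), and from 251 to 500 bp it was 4 of 18 (22.2%). Between 501 and 1000 bp it was 0 of 50, and replicates 1 and 3 had 1 such gene each. A 500 bp limit around both gene and TSS makes the measures overlap, so a fall with distance was built into this comparison. Any annotated TSS of the host counted, also one inside or past the snoRNA gene. snoRNA:Me18S-G1358b in drn lay 108 bp from a TSS past its end and 13483 bp from one upstream. snoRNA:Me28S-A1322, among the 12, lay 347 bp from a TSS past its end. Most intronic genes lay farther than 500 bp from any host TSS: their median distance to the nearest one was 1441 bp. By position in the host, 12 of 61 genes in a first intron had a summit (19.7%) and 3 of 182 in a later intron (1.65%).

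**Figure D2:**
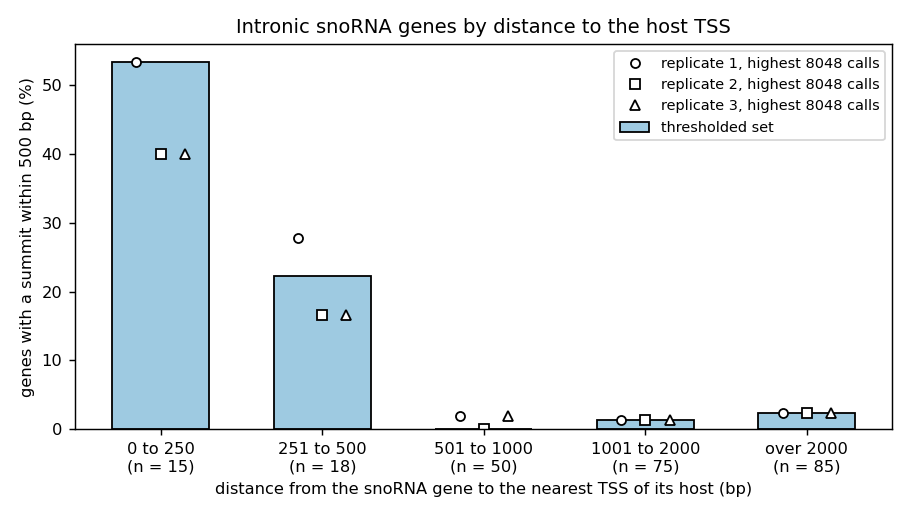
Share of intronic snoRNA genes with a summit within 500 bp (%) by distance from the gene to the nearest TSS of its host (bp), with bars for the thresholded set, symbols for the 3 replicates and the number of genes under each bar. The share is 53.3% in the nearest class and 0 to 2.35% in the 3 classes beyond 500 bp.

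Over all lengths, introns that hold snoRNA genes held summits about as often as other introns of the hosts. The median length was 243 bp for the former and 89 bp for the latter. Of 175 merged introns that hold a snoRNA gene, 9 held a thresholded summit (5.14%), against 19 of 363 other introns of the same hosts (5.23%). Per length these were 0.0805 and 0.0748 summits per kb. Introns of all protein-coding genes, of any length, held a summit in 4.74% and gave 0.0652 per kb. The chromosome arms gave 0.0601 per kb. The replicates gave 0.0856, 0.0705 and 0.0755 per kb for the introns with snoRNA genes, a range that includes the value of the other introns. Among introns of up to 1000 bp, 0 of 155 with a snoRNA gene and 4 of 339 others held a summit. Replicates 1, 2 and 3 gave 1, 1 and 0 against 5, 2 and 4. Among these shorter introns the density was 0 against 0.0883 summits per kb. It was 0.0222, 0.0222 and 0 against 0.0883, 0.0441 and 0.0589 per kb in the replicates, on few summits. Of the bases of these shorter introns, 6.68% lay within 500 bp of a summit for those with a snoRNA gene and 16.1% for the others. The share over short introns of all genes was not counted.

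Summits were common at the starts of the hosts. Of 92 host genes, 63 had a thresholded summit within 500 bp of an annotated TSS (68.5%, interval 58.4 to 77.1%), against 26.9% of all protein-coding genes. The replicates gave 66, 54 and 61 hosts (65.6% ± 6.55, SD, n = 3), where 29.5, 23.4 and 26.7% of protein-coding genes had one. Every replicate placed the hosts above all protein-coding genes by more than the spread between replicates. Leaving out the non-coding hosts gave 58 of 81 (71.6%). Hosts had a median of 1.5 annotated TSSs against 1 for all protein-coding genes, and a median span of 3643.5 bp against 2162.5 bp. What these differences add to the share was not tested. Of the 63 hosts, 49 had a TSS summit in all 3 replicates.

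**Figure D3:**
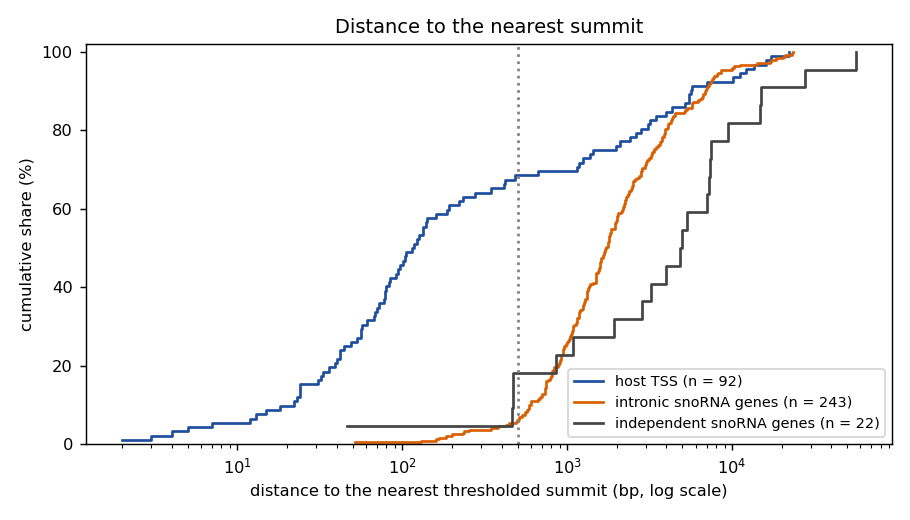
Cumulative share (%) of 92 hosts, 243 intronic snoRNA genes and 22 independent snoRNA genes by distance to the nearest thresholded summit (bp, log scale), with 500 bp as a dotted line. Each host is measured from whichever of its annotated TSSs lies closest to a summit. The host TSS curve rises first, with a median of 116 bp, while intronic genes have a median of 1722 bp and independent genes of 4868.5 bp.

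Host and snoRNA gene were thus apart by distance. The median distance to the nearest thresholded summit was 116 bp from the host TSS, 1722 bp from an intronic snoRNA gene and 4868.5 bp from an independent one. A host with several annotated TSSs was measured from the one closest to a summit, which can shorten its distance. Of the 243 intronic genes, 193 lay in a host with a TSS summit, and 14 of those were themselves within 500 bp of a summit (7.25%). In 49 of the 63 hosts with a TSS summit, no snoRNA gene was that close to one. The host summit lay upstream of the TSS in 52 of 63 hosts, at a median of -77 bp (-442 to 485). In 31 of the 63 it was also within 500 bp of the TSS of another gene, so that it cannot be given to the host alone.

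Ribosomal protein genes were the host class with the highest share. They hold 76 of the snoRNA genes, and 27 of these 29 hosts had a TSS summit (93.1%), with 27, 24 and 27 in the replicates (89.7% ± 5.97, SD, n = 3). Of the 57 ribosomal protein genes that hold no snoRNA gene, 45 had one (78.9%), with a replicate value of 77.8% ± 8.83 (SD, n = 3). Replicates 1, 2 and 3 gave 93.1, 82.8 and 93.1% for the hosts and 86.0, 68.4 and 78.9% for the other ribosomal protein genes, so the ranges overlap. Summits at ribosomal protein hosts stood tightly at the start, at a median of -42 bp (-139 to 18), and had a median rank of 1731 against 2524 over all hosts.

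The strongest were RpL14 at rank 560, RpL23A at 658, RpL13A at 701 and RpL28 at 720. RpS4 (862), RpS20 (1050), RpS16 (1355), RpL22 (1453), RpL11 (1461), RpL30 (1476), RpS5a (1515) and RpL4 (1592) followed. RpS12, RpS3A (1731), RpL17, RpL27A (2298), RpS29, RpL10Ab, RpS7 (3487), RpL36A (3656), RpL3 (3734), RpL7A (4075), sta (4632), RpS6, RpL15 and RpL5 (7513) ranked lower. RpL14, RpL23A and RpL13A had no snoRNA gene within 500 bp of a summit, although snoRNA:U49:66Da of RpL14 missed the limit by a few bases. Strong peaks were thus found also at hosts with no snoRNA gene within 500 bp of a summit.

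The Uhg genes were split. They hold 48 snoRNA genes, and 4 of the 7 had a TSS summit, with 4, 4 and 3 in the replicates. These were Uhg4, Uhg2, Uhg1 and Uhg8, the last at rank 3039 and -342 bp from its TSS. Uhg3, Uhg5 and Uhg7 had none. Uhg7 lies within the span of RpL23A on the same strand, and Uhg5, which holds 11 snoRNA genes, had only the summit past its end. The 3 intronic snoRNA genes of Uhg7 are also counted with the ribosomal protein hosts. So is snoRNA:Or-CD15, which overlaps a host exon and is among the 48. Of the 52 other protein-coding hosts, 31 had a TSS summit (59.6%), with 34, 25 and 30 in the replicates (57.1% ± 8.67, SD, n = 3). Of the 4 other non-coding hosts, CR33222 alone had one.

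Most hosts that carry many snoRNA genes had a TSS summit. Of the 19 hosts with 4 or more, 15 had a TSS summit (78.9%), near the share of all 92 hosts (68.5%). Arpc2 (17 snoRNA genes) had its TSS summit at rank 5695, matched within 100 bp in replicate 1 alone (6826). Each replicate had some summit within 500 bp of an Arpc2 TSS. The summit of dom (15), a chromatin remodelling ATPase gene, ranked 6573 and was matched in replicate 3 alone (10693). RpS5a (14) had rank 1515, kra (8) 2524, Nop60B (7) 3107 and RpS7 (7) 3487. Hrb98DE (7), a gene for an RNA-binding protein of the hnRNP family, had rank 7158 (15600, 4643 and 5225 in the replicates). lola (4), a gene for a family of BTB zinc-finger transcription factors, had the highest of these, at rank 227. The 4 without a TSS summit were Uhg5 (11), Sf3b3 (9), CG10576 (5) and lncRNA:CR45184 (5). Sf3b3, which encodes a splicing factor subunit, and lncRNA:CR45184 overlap and share members, so they are not independent cases.

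**Figure D4:**
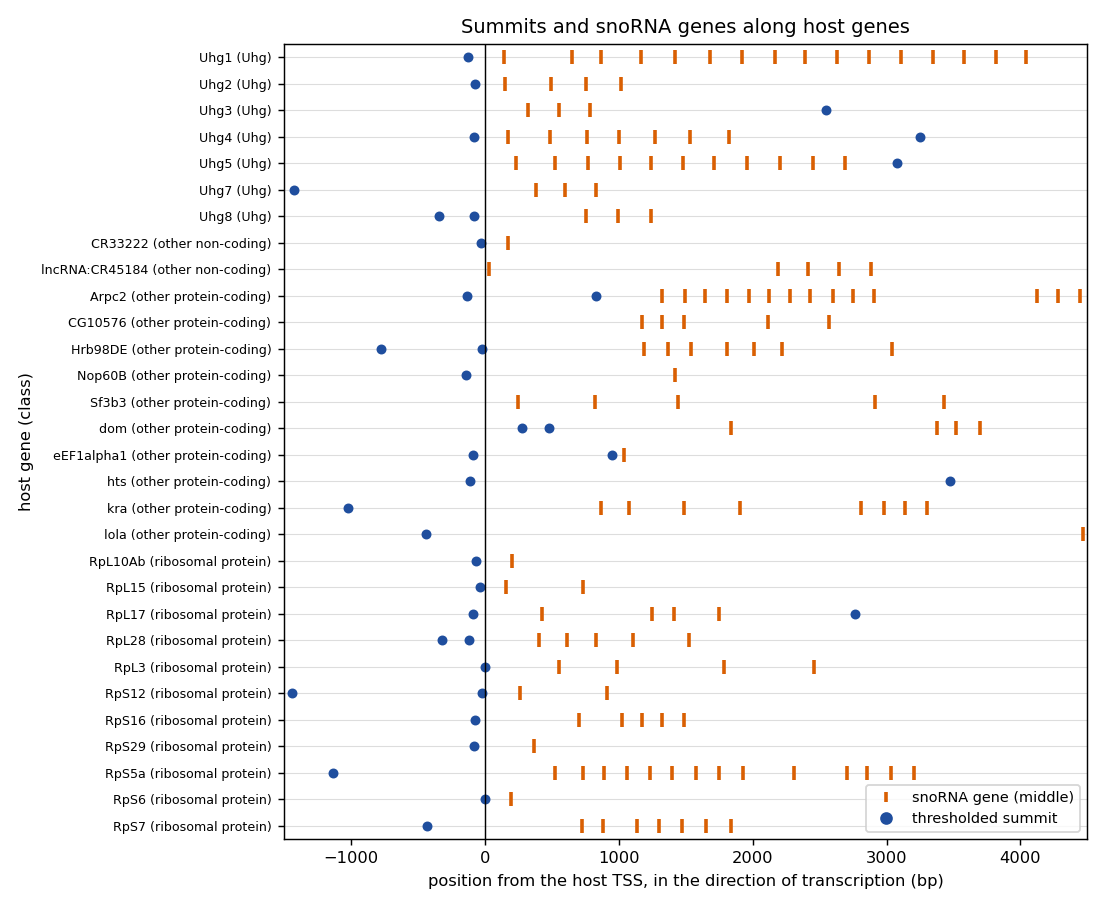
Map of hosts that are Uhg genes, carry 4 or more snoRNA genes or have a snoRNA gene within 500 bp of a thresholded summit, with snoRNA genes and thresholded summits by distance (bp) from the host TSS nearest upstream of the first snoRNA gene. Hosts such as Uhg1, Uhg2, Uhg4 and RpS12 have a summit shortly before 0 and the snoRNA genes to the right, while other summits lie farther away; hosts such as RpS5a, RpS7 and kra show the summit away from 0 because it lies at another annotated TSS, and features beyond the ends of the axis are not drawn.

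Independent genes had a higher share in the thresholded set, on few genes. A summit lay within 500 bp of 4 of 22 (18.2%, interval 7.31 to 38.5%), with 4, 2 and 3 in the replicates (13.6% ± 4.55, SD, n = 3). The interval includes the intronic share, and 2 genes were left when peaks had to be found in both other replicates, whichever replicate was left out. When a gene on either strand counted as a host, 12 genes remained independent and 2 of them had a summit. The 4 genes were snoRNA:Or-ACA6 and snoRNA:Or-CD13, which share the egr summit, and snoRNA:185 and scaRNA:MeU1:95C-A24. The snoRNA:185 summit lay 46 bp upstream of that gene's own start, with a tRNA TSS also within 500 bp. The scaRNA:MeU1:95C-A24 summit lay inside snRNA:U1:21D.

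More independent genes had a summit when weaker calls were included. Among all 30000 pooled calls, 15 of 22 had a summit within 500 bp (68.2%), against 32 of 243 intronic genes (13.2%) and 52.6% of all genes. The full replicate lists gave 14, 8 and 17 of the 22 independent genes, where 56.0, 50.0 and 55.4% of all genes had a summit. In replicate 2 the share of independent genes was thus below that of all genes. Neighbouring genes can share a call, as snoRNA:Or-ACA6 and snoRNA:Or-CD13 do, and each is counted. A call in each of the 3 replicates was present for 6 of 22. Of the 15, the nearest pooled call was among the highest 8048 for snoRNA:Or-ACA6, snoRNA:Or-CD13 and snoRNA:185, and those of the others ranked from 11508 to 28518. snoRNA:Psi28S-2622 had its nearest pooled call 8 bp past its end at rank 18712, and the calls nearest to it ranked 10775, 10265 and 12853 in the replicates. snoRNA:Psi28S-3342 had one 60 bp upstream of its start at rank 19679 (17975, 28536 and 15052).

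Some calls lay inside or beside genes of known function. snoRNA:U3:9B, one of the genes for U3, the snoRNA that acts in cleavage of the ribosomal RNA precursor, had a pooled call within it at rank 15309, matched in replicate 3 alone (12732). The other U3 genes, snoRNA:U3:54Aa and snoRNA:U3:54Ab, had no pooled call within 500 bp, and each had a call of low rank in a single replicate (23000 in replicate 3 for the former and 29225 in replicate 1 for the latter). snoRNA:Psi18S-176 had a pooled call inside it at rank 12653 (14099 in replicate 2 and 10892 in replicate 3, none in replicate 1). snoRNA:Psi28S-1153 had one at rank 15256, 91 bp away, with calls of rank 9834 in replicate 1 and 8944 in replicate 3. None of these stood in the thresholded set, and no U3 gene had a call in all 3 replicates.

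Both box classes had members near a summit. A thresholded summit lay within 500 bp of 9 box C/D genes (8.91%), 8 of 120 box H/ACA genes (6.67%) and 2 of 48 genes with no class in the name (4.17%). Among intronic genes the shares were 7 of 93 for box C/D (7.53%) and 7 of 111 for box H/ACA (6.31%).

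The summit windows shown for RpL28 and RpL10Ab hold a motif that recurred near snoRNA genes. TATCGATA was found, on either strand, in 4 of the 17 windows around the near summits (23.5%), against 1.60% of all 8048 windows and 3.58% of the 3209 windows within 500 bp of a protein-coding TSS. The 4 were RpL28, RpS12, RpS29 and RpL10Ab, and all are ribosomal protein hosts. Over the 63 host TSS windows it was in 5 (7.94%), the fifth at RpL36A. CGATAT was found in 5 near windows (29.4%) and 16 host TSS windows (25.4%), against 8.29% of protein-coding TSS windows and 5.65% of all. The 63 host windows are 62 distinct sites: RpS6 and CR33222 share theirs, which holds CGATAT and is counted for both. CGATAT overlapped TATCGATA in 3 of the near windows. GGTCACACT, known as motif 1 of fly core promoters, was in 0 near windows and 1 host TSS window (1.59%), against 0.721% of all.

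The Runx consensus, which lz binds through its Runt domain, was found at few of these sites. It was searched on both strands as ACCACA with A or G before it, and in the same way as ACCGCA. It was found in 1 of the 17 near windows, at Uhg4, and in 6 of the 63 host TSS windows (9.52%), against 2.74% of protein-coding TSS windows and 2.68% of all. With so few windows these shares carry wide error, and a match is a description and not a binding site. The windows also differed in base composition: G and C made up 41.0% near snoRNA genes, 39.1% at host TSSs, 35.5% at protein-coding TSSs and 33.7% over all summits. Whether base composition sets the motif shares was not tested.

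A start within a pyrimidine tract is a feature of genes for the translation machinery. At the hosts a short match to such a tract was counted, and the tract itself was not measured. CTTT with its C within 5 bp of an annotated TSS was found in 31 of 92 hosts (33.7%) against 8.06% of all protein-coding genes. It was found in 19 of the 29 ribosomal protein hosts (65.5%) and in 56 of all 86 ribosomal protein genes (65.1%). It was also found in 3 of 7 Uhg genes and 9 of 52 other protein-coding hosts (17.3%).

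Genes for the core and assembly proteins of snoRNA particles, and for the complex that binds small nuclear RNA promoters, were examined by the same rule. Of these 18 genes, 10 had a thresholded summit within 500 bp of a TSS (55.6%), with 11, 7 and 9 in the replicates, against 26.9% of protein-coding genes. By role, these were 2 of 4 core box C/D genes, 2 of 4 core box H/ACA genes, 5 of 7 assembly genes and 1 of 3 genes of the promoter complex. Among the core proteins of box C/D particles, Fib, the methyltransferase fibrillarin, had a summit at rank 6748 (6587, 8670 and 7626 in the replicates) and nop5 at rank 5687 (4134 and 7410 in replicates 1 and 3, none in replicate 2). Nop56 had none, and hoip had one within 500 bp of the gene but not of a TSS.

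Among the core box H/ACA genes, Nop60B, which encodes the pseudouridine synthase, had a summit at rank 3107 (3938, 2193 and 3996) and NHP2 at rank 1588 (1711, 2404 and 1206). Both stood in all 3 replicates, while Nop10 and Gar1 had none. Fib, nop5 and Nop60B are themselves hosts of snoRNA genes, so these 3 enter both counts.

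Among the assembly genes, the ATPase genes pont (rank 1420, with 1963, 1456 and 1179 in the replicates) and rept (3132, with 2130, 5079 and 3527) and the nucleolar chaperone gene Nopp140 (3926, with 3859, 3625 and 4767) had it in every replicate. Nufip (5565) and spag (7801) had it in 2 and 1 of the 3, and CG10341 and CG10055 had none. Among the genes for the complex that binds small nuclear RNA promoters, Pbp95 had a summit at rank 3418 and -394 bp from its TSS, and Pbp49 had none. Pbp45 had none in the thresholded set but had one in replicates 1 and 3.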

How the data were processed

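ChIP-seq peak lists on the dm6 build were analysed. The authors used 1 control alignment in calling peaks, per the deposited file lists. Which aligner, caller and reproducibility level they used is not given in the sources used. The signal column is the authors' value per peak, with a scale that differs between lists. Ranks did not use the deposited −log10 q-value. Read depth is unknown.

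Genes came from Ensembl release 115, whose arm lengths were checked against the genome. A host is a gene on the same strand whose intron holds the whole snoRNA gene, and any annotated TSS of a host counted. Coordinates are 1-based. The members, the gene list and the comparisons were chosen with earlier results of these data known. With 1 group there was no test: counts stand with Wilson intervals and the mean and SD over replicates, which measure only the spread between these samples.

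Genes were named by a rule: independent genes with a call in any list, the nearest gene at the 12 highest peaks, hosts of ribosomal protein or of 4 or more snoRNA genes, the 3 genes on each side of 500 bp, and the gene list. The remaining near members were also named, and some genes under the rule are covered by counts only or are not reported here. Alternatives covered the distance, the peak set, the host definition and leaving out each replicate. The counting was tested on simulated data. Software was Python 3.11.15 with numpy 2.4.6, pandas 2.3.3, statsmodels 0.14.6 and matplotlib 3.10.9.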

Additional observations from a re-analysis of the deposited data

How the results depend on the processing

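The counts near snoRNA genes depend on the distance and the peak set. The host count did not move by more than 1.5 times under any alternative tried. Its value of 42 with the 4024 highest thresholded peaks stood at that limit. In the order snoRNA genes, intronic genes, independent genes, loci and near summits at a host TSS, the counts of 19, 15, 4, 17 and 11 became 9, 8, 1, 9 and 6 within 250 bp. Within 1000 bp they became 68, 63, 5, 43 and 39. With the 4024 highest thresholded peaks they were 9, 7, 2, 7 and 6, and with all pooled calls 49, 32, 15, 39 and 19. With all pooled calls 52.6% of all genes had a summit within 500 bp. The share of all genes was not counted at 250 or 1000 bp or with the 4024 highest peaks. How far the background moved there is therefore unknown. Leaving out each replicate gave 11 to 12 snoRNA genes, 9 to 10 intronic genes, 2 independent genes each time, 9 to 10 loci and 6 to 8 host TSS summits. Counting a gene on either strand as a host gave 17 of 257 intronic and 2 of 12 independent genes. The 63 hosts became 58, 64, 42 and 76 under the 4 distance and peak settings, 44 to 54 without a replicate, and 70 of 109 with hosts on either strand; with all pooled calls 48.4% of protein-coding genes had a TSS summit. Of 45 alternatives, 14 were within 1.5 times the reported count and 31 moved by more. Leaving out a replicate keeps only peaks found in both others, so these counts can only fall. No paired analysis was possible because the samples form 1 group. Unknown read depth limits what the absence of a peak can show.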

Other observations

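A few snoRNA genes had a nearby summit in a replicate but not in the thresholded set. snoRNA:CG43051-a, which overlaps an exon of its host CG43051, had one within 500 bp among the highest 8048 calls of replicates 1 and 3, while its nearest thresholded summit was 5705 bp away. snoRNA:Me28S-C2645a in Uhg3 and snoRNA:abba-a in tn had one in replicate 2 alone. snoRNA:Dek-a in Dek and snoRNA:Or-CD9b in Nop60B had one in replicate 1 alone, with thresholded summits 583 and 576 bp away.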
